A study of Mus musculus with 2 samples.

Results

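The Siglecs are receptors of leukocytes that bind sialic acids, the acidic sugars at the ends of many surface glycans. Described here are 7 mouse genes of this family, Siglec1, Siglech, Siglece, Siglecf, Siglecg, Cd22 and Cd33, taken by symbol from the 32285 genes in the files and read across cell classes of the Nf1-OPG optic nerve. Mag, the myelin member of the family, was left out of the set. Most Siglecs carry cytoplasmic tyrosine motifs that recruit the phosphatases SHP-1 and SHP-2 and dampen activating receptors, whereas Siglec-H has no such motif and signals through the adaptor DAP12. Siglec-1 (sialoadhesin) is an endocytic and adhesive receptor of macrophages without a signalling motif of its own. In the brain, Siglec-H is widely used to mark microglia, and outside it to mark plasmacytoid dendritic cells.

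The data are 2 single-cell RNA sequencing libraries made with a 5′ kit, C-ON and FMC_new, each labelled as optic nerve of Nf1-OPG mice at 12 weeks of age and described as a pool of 10 mice. These mice carry 1 floxed and 1 mutated Nf1 allele (Nf1 flox/mut) with GFAP-Cre on a C57BL/6 background, so that Cre is driven by the GFAP promoter and the stromal cells of the nerve, leukocytes included, stay heterozygous for Nf1. C-ON is also titled a control, a word the labels do not explain, and no library from mice without a tumor was analysed here. The labels' protocol also covers meningeal dura, and it removes myelin and debris before loading, which can set the share of each cell type. With 2 libraries of a single condition no test between groups was possible, so levels are given per library with exact 95% Poisson intervals, which cover counting error only.

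Of 10845 barcodes in C-ON and 21341 in FMC_new, 8832 and 16817 were kept, with medians of 6812 and 4676 unique molecular identifiers (UMIs, counted RNA molecules) per cell. Clusters were named from marker lists that hold no Siglec gene, and 18 classes were named, 15 of which had at least 20 cells in both libraries. The microglia-like class (153 cells in C-ON and 833 in FMC_new) showed 8 of 8 listed markers, the border-associated macrophage-like class (117 and 205 cells) 7 of 7, the C1q macrophage-like class (211 and 718 cells) 9 of 9, the type 2 dendritic cell-like class (200 and 836 cells) 6 of 6, and the B cell-like class (48 and 301 cells) 8 of 8. All 9 C1q markers were also counted in the microglia-like, border-associated macrophage-like and type 2 dendritic cell-like classes. Their number thus does not set the C1q class apart. Neutrophil-like cells (3 and 129) and plasmacytoid dendritic cell-like cells (3 and 45) were read in FMC_new. In all, 5761 of 25649 cells stayed unnamed. FMC_new held free pituitary RNA: growth hormone (Gh) stood at 2179 counts per 1000000 UMIs of the class (CPM) in microglia-like cells, with 0 UMIs in the same class of C-ON. Outside pituitary endocrine-like cells, Gh in FMC_new ranged from 1551 CPM in plasma cell-like to 25483 in neutrophil-like cells. It was 6993 in C1q macrophage-like and 7488 in border-associated macrophage-like cells, so free RNA was not even across classes. The libraries shared 296 barcode sequences, 188 of them among kept cells, and which of these are the same cell was not tested.

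All members but Siglec1 lie on mouse chromosome 7 (build GRCm38). Siglecf (chr7:43351341-43359531, plus strand), Siglecg (chr7:43408204-43418358, plus), Cd33 (chr7:43524216-43544428, minus) and Siglece (chr7:43651070-43660161, minus) lie in the same region, with other genes between them. Cd22 (chr7:30865402-30880342, minus) and Siglech (chr7:55768178-55778925, plus) lie elsewhere on the chromosome, and Siglec1 is on chromosome 2 (chr2:131069220-131086765, minus). The RefSeq promoter table (GRCm38.p6) held 6 of the 7 members. The 250 bases before the RefSeq start are shown for the 3 genes that carry the letters GGAAGT, so they were picked for the motif. Siglece and Cd22, which were also counted in microglia-like cells, and Siglecg do not carry it. GGAAGT is the core bound by ETS factors such as PU.1, which macrophages and microglia need, and capitals mark it on either strand. For Cd33 and Siglech the RefSeq start lies inside the span that GENCODE gives the gene. The windows are chr7:43351091-43351340 (plus strand), chr7:43533172-43533421 (minus strand) and chr7:55767934-55768183 (plus strand).
Siglecf: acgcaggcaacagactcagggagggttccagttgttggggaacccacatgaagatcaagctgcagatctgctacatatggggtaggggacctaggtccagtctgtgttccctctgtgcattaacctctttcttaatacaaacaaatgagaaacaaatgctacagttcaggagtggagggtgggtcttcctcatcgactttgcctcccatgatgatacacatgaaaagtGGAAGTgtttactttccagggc
Cd33: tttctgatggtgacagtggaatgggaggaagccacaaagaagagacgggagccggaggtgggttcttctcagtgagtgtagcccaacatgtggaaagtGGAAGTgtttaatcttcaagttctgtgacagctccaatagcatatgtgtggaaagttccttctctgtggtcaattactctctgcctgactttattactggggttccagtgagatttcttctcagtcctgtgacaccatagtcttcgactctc
Siglech: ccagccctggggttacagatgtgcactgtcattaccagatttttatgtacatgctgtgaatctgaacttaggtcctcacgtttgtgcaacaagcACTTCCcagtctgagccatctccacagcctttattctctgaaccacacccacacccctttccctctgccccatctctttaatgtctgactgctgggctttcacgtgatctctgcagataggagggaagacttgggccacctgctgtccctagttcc

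The core began 22 bases before the start in Siglecf, 152 in Cd33 and 156 in Siglech, where it lies on the opposite strand. Around it, the Siglecf and Cd33 windows shared a run of 16 identical bases, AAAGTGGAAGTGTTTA, and this was the longest run they shared. The core was in 19.7% of all 32851 promoter windows of this length. The longer PU.1 box GAGGAAGT was in none of the members' windows and in 2.44% of all, and overlaps the core. Of the other motifs searched on both strands, the E-box CACGTG was in the Siglech window only (6.02% of all windows) and the RUNX motif TGTGGT in those of Cd33 and Siglech (14.0%). These matches describe letters and do not show that a factor binds.

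Each member had its own distribution over the 15 classes with at least 20 cells in both libraries, which do not include the plasmacytoid and neutrophil classes. Siglech and Siglecf were highest there in microglia-like cells, Siglec1 in border-associated macrophage-like cells, and Siglecg in B cell-like cells. Siglece and Cd33 were spread over several myeloid classes, and Cd22 was shared between B cell-like and microglia-like cells. By a rule that asks for the same highest class in both libraries at no less than 2 times the next class, 3 of 7 members kept to 1 class (Siglec1, Siglech and Siglecf), where 12.8% of the 16580 genes with at least 20 UMIs in each library did. A limit of 5 times the next class left 2 members (4.55% of all genes), and classes of at least 50 cells gave 4 (19.2%), with Cd22 in microglia-like cells added because the 48 B cell-like cells of C-ON fell below that limit. FMC_new alone gave 4 members (29.2%) and C-ON alone 3 (27.7%). These are descriptions, and nothing particular to the family can be read from 7 genes.

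**Figure D1:**
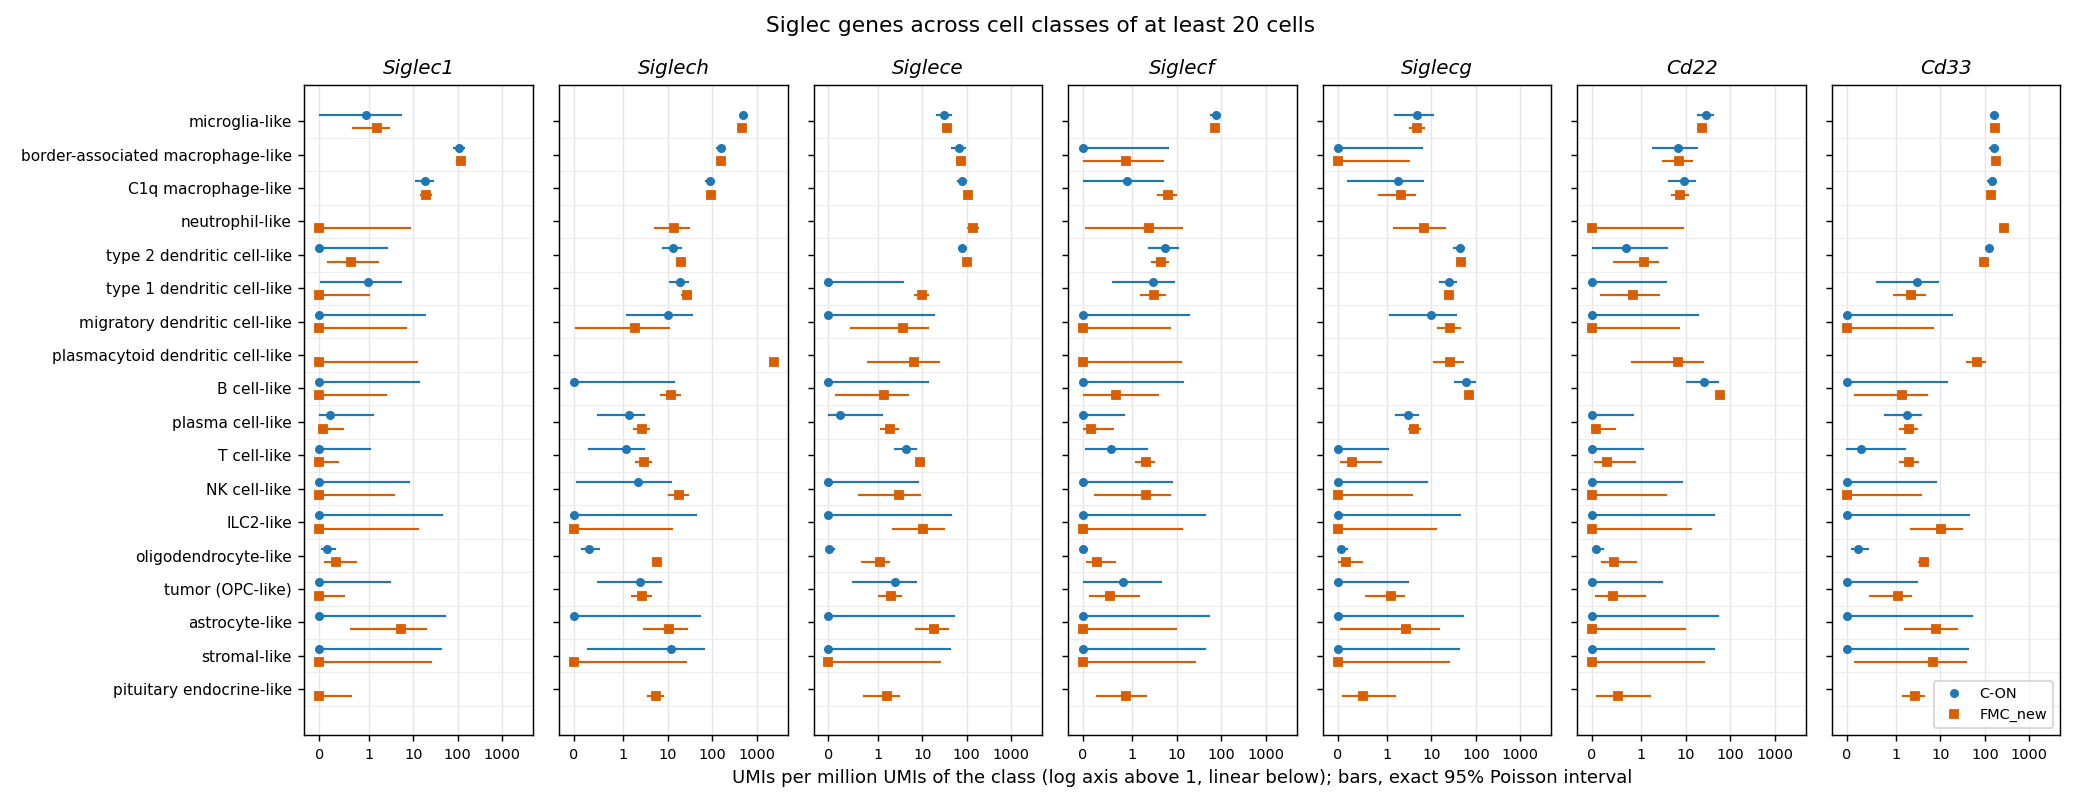
Level of each Siglec gene (CPM, counts per 1000000 UMIs of the class; the axis is logarithmic above 1 and linear below) in every class of at least 20 cells, with circles for C-ON, squares for FMC_new and bars for the exact 95% Poisson interval. Siglech reaches 503 and 462 in microglia-like cells and 2440.1 in the plasmacytoid dendritic cell-like cells of FMC_new, while Siglecf is at 74.2 and 71.5 in microglia-like cells and at 6.195 or below in every other class drawn.

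Siglech encodes the DAP12-coupled endocytic receptor Siglec-H. In microglia-like cells it stood at 503 CPM in C-ON (95% interval 461 to 547) and 462 in FMC_new (445 to 480), or 482 ± 28.6 (SD, n = 2 libraries). The level was higher still in plasmacytoid dendritic cell-like cells, at 2440.1 in the 45 cells of FMC_new (2267 to 2623). The 3 such cells of C-ON held 41 UMIs, or 2492 CPM (1788 to 3381). These cells were few, so that in FMC_new they held 13.6% of the Siglech UMIs against 51.2% in microglia-like cells. In FMC_new the level in the plasmacytoid class was 5.28 times that in microglia-like cells.

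Siglech was also counted in the other macrophages. Border-associated macrophage-like cells had 159.8 CPM in C-ON (129 to 196) and 160.2 in FMC_new (138 to 185), and C1q macrophage-like cells 90.4 (73.7 to 109.7) and 92.0 (82.1 to 103). The order microglia-like, border-associated, C1q was the same in both libraries, and no 2 of these intervals overlapped within a library. It did not hold when cells were classed by a per-cell marker gate in place of clusters: gated C1q macrophages then had 165 in C-ON (147 to 185) and 196 in FMC_new (187 to 204), against 169 (124 to 225) and 151 (117 to 192) in gated border-associated macrophages. Gated microglia stayed highest of the 3, at 661 and 541. The summed C1q markers stood at 30529 and 33699 CPM in microglia-like cells, and at 26139 and 34232 in C1q macrophage-like cells. That list thus does not part these classes by level, so gated C1q macrophages can include microglia. This limit applies to each gated comparison of these classes below. By cluster, type 1 dendritic cell-like cells followed at 18.6 and 26.4. Type 2 dendritic cell-like cells had 12.9 and 20.1, with intervals that overlapped those of type 1. T cell-like cells gave 1.15 and 2.90, and oligodendrocyte-like cells 0.304 and 5.80, so both levels were higher in FMC_new. NK cell-like (2.16 and 17.8) and B cell-like cells (0 and 12.1) went the same way. Tumor (OPC-like) cells were nearly level (2.41 and 2.63). Migratory dendritic cell-like (9.93 and 1.87) and stromal-like cells (11.6 and 0) were higher in C-ON, on few UMIs.

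At an equal depth of 1000 UMIs per cell, Siglech was detected in 38.6% of microglia-like cells of C-ON (exact Clopper-Pearson 95% interval 30.8 to 46.8, 153 cells) and 38.2% in FMC_new (34.9 to 41.6, 833 cells). Without thinning these shares were 83.7% and 86.7%. In oligodendrocyte-like cells the thinned shares were 0.0188% and 0.6%, from cells with medians of 8070 and 7756 UMIs before thinning. The shares in border-associated macrophage-like cells (19.7% and 17.1%) and C1q macrophage-like cells (10.5% and 8.35%) were higher than those of oligodendrocyte-like cells. Free Gh RNA in FMC_new was also lower in oligodendrocyte-like cells (2246 CPM) than in these 2 macrophage classes, so their share is not a measure of free RNA in macrophages.

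Siglech was set beside 7 of the microglial marker genes used for naming. In border-associated macrophage-like cells Siglech stood at 31.8% of its microglia-like level in C-ON and 34.7% in FMC_new. The purinergic receptor gene P2ry12 stood at 12.0% and 17.0%, Tmem119 at 1.54% and 3.75%, and the microglial transcription factor gene Sall1 at 5.54% and 2.39%. Sparc was at 1.71% and 3.92%. Gpr34 (25.3% and 37.0%), Cx3cr1 (24.7% and 39.3%) and P2ry13 (22.8% in both) came nearer to Siglech. Thus 5 of these 7 markers stood below the Siglech share in both libraries, and Gpr34 and Cx3cr1 did in C-ON only. In C1q macrophage-like cells Siglech stood at 18.0% and 19.9%. There Cx3cr1 (33.6% and 42.2%) and Gpr34 (20.3% and 26.1%) were above it in both libraries. P2ry13 was above it in C-ON only, and P2ry12, Tmem119, Sall1 and Sparc were below it in both. The genes did not keep 1 ratio to their microglia-like level, and the part of free RNA or doublets in the Siglech counts of these cells was not tested.

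**Figure D2:**
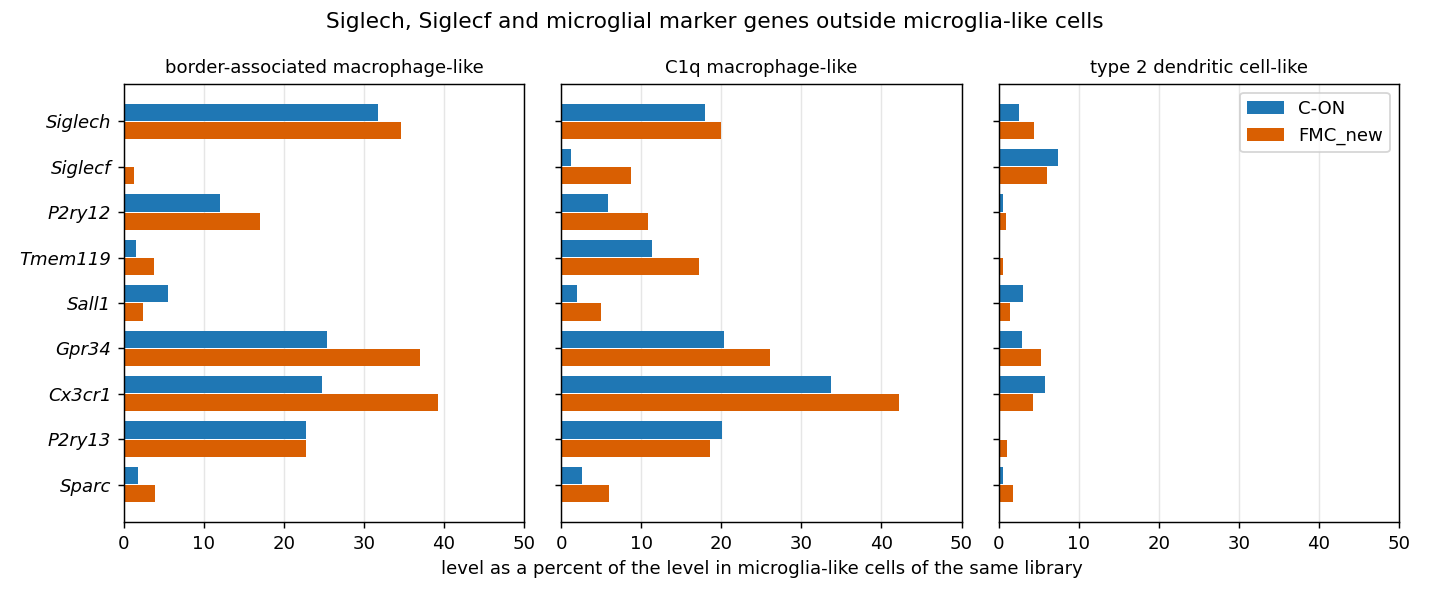
Level of Siglech, Siglecf and 7 microglial marker genes in border-associated macrophage-like, C1q macrophage-like and type 2 dendritic cell-like cells, as a percent of the level in microglia-like cells of the same library (bars, C-ON and FMC_new). In the border-associated class Siglech is at 31.8% and 34.7% while Siglecf is at 0% and 1.2%.

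Siglech was also read among single cells of the border-associated class. The 73 cells of C-ON and 111 of FMC_new without a UMI of P2ry12, Tmem119 or Sall1 still had 150.5 (111 to 199) and 118 (92.0 to 150.1) CPM of Siglech. Cells with at least 1 of these markers had 171 (125 to 229) and 201 (166 to 241). In C1q macrophage-like cells the level was 77.8 and 73.8 without the markers, and 107.0 and 111 with them. Only in FMC_new did these Siglech intervals not overlap, in both classes. The split was not particular to Siglech. In the border-associated class of FMC_new, Cd33 was 145 (115 to 179) without the markers and 218 (182 to 259) with them. Siglec1 there was 97.5 (73.7 to 127) and 135 (107 to 168), which overlapped. In the C1q class of FMC_new the Cd33 intervals overlapped.

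Siglecf, whose product Siglec-F is the eosinophil receptor that is also found on alveolar macrophages, was nearly confined to microglia-like cells among the named classes. Its level there was 74.2 CPM in C-ON (58.8 to 92.5) and 71.5 in FMC_new (64.9 to 78.6), or 72.9 ± 1.94 (SD, n = 2 libraries). The next class by mean level, type 2 dendritic cell-like cells, had 5.45 and 4.30, so microglia-like cells were 13.6 and 16.6 times higher. Border-associated macrophage-like cells had 0 UMIs in C-ON and 1 in FMC_new, which separates Siglecf from Siglech in this class. Microglia-like cells held 79.0% of all Siglecf UMIs in C-ON and 66.1% in FMC_new. This depended on how cells were classed: under the per-cell gate, Siglecf was at 62.4 and 56.6 in gated microglia and at 26.2 and 32.9 in gated C1q macrophages, which then numbered 346 and 2539 cells. Since the C1q list does not part these classes by level, the gated C1q macrophages can include microglia, which was not tested. With each library clustered alone the mean microglia-like level was 44.6.

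No eosinophils were found among the kept cells. No kept cell in either library passed a gate on the 5 eosinophil markers (Prg2, Epx, Ear1, Il5ra, Ccr3), and the summed level of these markers in microglia-like cells was 0 in C-ON and 0.665 CPM in FMC_new. Barcodes outside the cell limits, which held 20 and 74 Siglecf UMIs, were not read by this gate. Eosinophils with few UMIs or without these markers could thus have been missed. At 1000 UMIs per cell, Siglecf was detected in 5.88% (2.72 to 10.9) and 5.64% (4.17 to 7.43) of microglia-like cells. In oligodendrocyte-like cells of FMC_new this share was 0.0461%.

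Siglec1, the sialoadhesin gene, was highest in border-associated macrophage-like cells, the perivascular and meningeal macrophages. The level was 107 CPM in C-ON (82.3 to 137) and 116 in FMC_new (97.5 to 138), or 112 ± 6.47 (SD, n = 2 libraries). C1q macrophage-like cells followed at 18.6 (11.5 to 28.5) and 19.8 (15.3 to 25.1), a level 5.76 and 5.88 times lower. Microglia-like cells had 1 UMI in C-ON and 9 in FMC_new, or 0.940 and 1.496 CPM, so that Siglec1 and Siglecf were counted in nearly separate macrophage classes. Among the single cells of the border-associated class, Siglec1 was in 28.2% of those in C-ON and 41.0% in FMC_new, and 12.8% and 13.7% held both Siglec1 and Siglech. The thinned shares with Siglec1 were 8.55% and 9.76%, against 0% and 0.0461% of oligodendrocyte-like cells.

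Cd33 and Siglece encode receptors of myeloid cells, of which Siglec-E is an inhibitory receptor that pairs with SHP-1 and SHP-2. Cd33 was nearly even across macrophages. Its level was 163 (132 to 199) and 182 (158 to 208) in border-associated macrophage-like cells, 159.8 (137 to 186) and 165 (155 to 176) in microglia-like cells, and 141 (119.8 to 165) and 140.1 (128 to 153) in C1q macrophage-like cells, for C-ON and FMC_new in turn. In C-ON none of these differed beyond counting error. In FMC_new the border-associated and microglia-like intervals overlapped, and the C1q class lay just below them. Type 2 dendritic cell-like cells had 123 (106 to 143) and 94.7 (87.2 to 103), whereas type 1 dendritic cell-like cells had 2.94 (0.606 to 8.58, from 3 UMIs) and 2.23, so that the type 2 class was 42.5 times higher in FMC_new. The neutrophil-like cells of FMC_new had 264 (218 to 318), which was above the intervals of every macrophage class there.

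Siglece shared the myeloid reach of Cd33 but was lower in microglia-like cells. In C-ON it stood at 79.7 (65.9 to 95.5) in type 2 dendritic cell-like, 78.9 (63.3 to 97.1) in C1q macrophage-like and 66.3 (47.2 to 90.7) in border-associated macrophage-like cells, which did not differ beyond counting error. Microglia-like cells were below all of them at 31.01 (21.3 to 43.6). In FMC_new the order began with neutrophil-like cells at 141 (108 to 182), followed by C1q macrophage-like cells at 107 (96.6 to 119.0) and type 2 dendritic cell-like cells at 101 (93.0 to 109). Border-associated macrophage-like cells (75.8, 60.8 to 93.4) and microglia-like cells (35.4, 30.8 to 40.5) came after them. C1q macrophage-like cells thus had 2.54 and 3.03 times the Siglece level of microglia-like cells. Under the per-cell gate the C1q macrophages had 78.5 and 59.9 against 43.8 and 39.8 in microglia, and in FMC_new they lay below the gated type 2 dendritic cells at 101 (92.4 to 110.4). The highest class changed with the library, since in C-ON the type 2 dendritic cell-like class was level with the C1q class. With coarser clusters (a resolution of 0.8 in place of 2) the C1q class held a mean of 23.1.

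Siglece, like Cd33, parted the dendritic cells. Type 1 dendritic cell-like cells had 0 UMIs in C-ON and 9.74 CPM in FMC_new, against which the type 2 class was at least 27.1 times higher in C-ON (with a floor of 3 counts for the class) and 10.3 times higher in FMC_new. A low Siglece level was also counted in T cell-like cells, at 4.33 (2.42 to 7.14) and 8.91 (7.15 to 11.0). In FMC_new this was above the 1.13 (0.688 to 1.74) of oligodendrocyte-like cells, and the thinned shares were 0.678% of T cell-like and 0.0923% of oligodendrocyte-like cells. What the T cell-like UMIs come from was not tested.

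The type 2 dendritic cell class can hold monocytes, so its cells were also read by a per-cell gate. Among its cells, 143 in C-ON and 556 in FMC_new passed the gate for type 2 dendritic cells. In these the level of Siglece was 80.5 (63.9 to 100.02) and 105 (95.9 to 116), and that of Cd33 was 144 (122 to 170) and 111 (101 to 121). Only 6 and 30 cells of the class passed the gate for classical monocytes. In the 30 of FMC_new, Siglece was at 99.7 (59.1 to 158, from 18 UMIs) while Cd33 was at 16.6 (3.43 to 48.6, from 3 UMIs), an interval below that of the gated type 2 cells. Over all classes, the 92 gated classical monocytes of FMC_new had Siglece at 56.5 (38.4 to 80.2). This was below all gated type 2 dendritic cells of FMC_new, at 101 (92.4 to 110.4). The 16 gated classical monocytes of C-ON had 0 UMIs of Siglece, with an upper limit of 39.2 CPM.

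**Figure D3:**
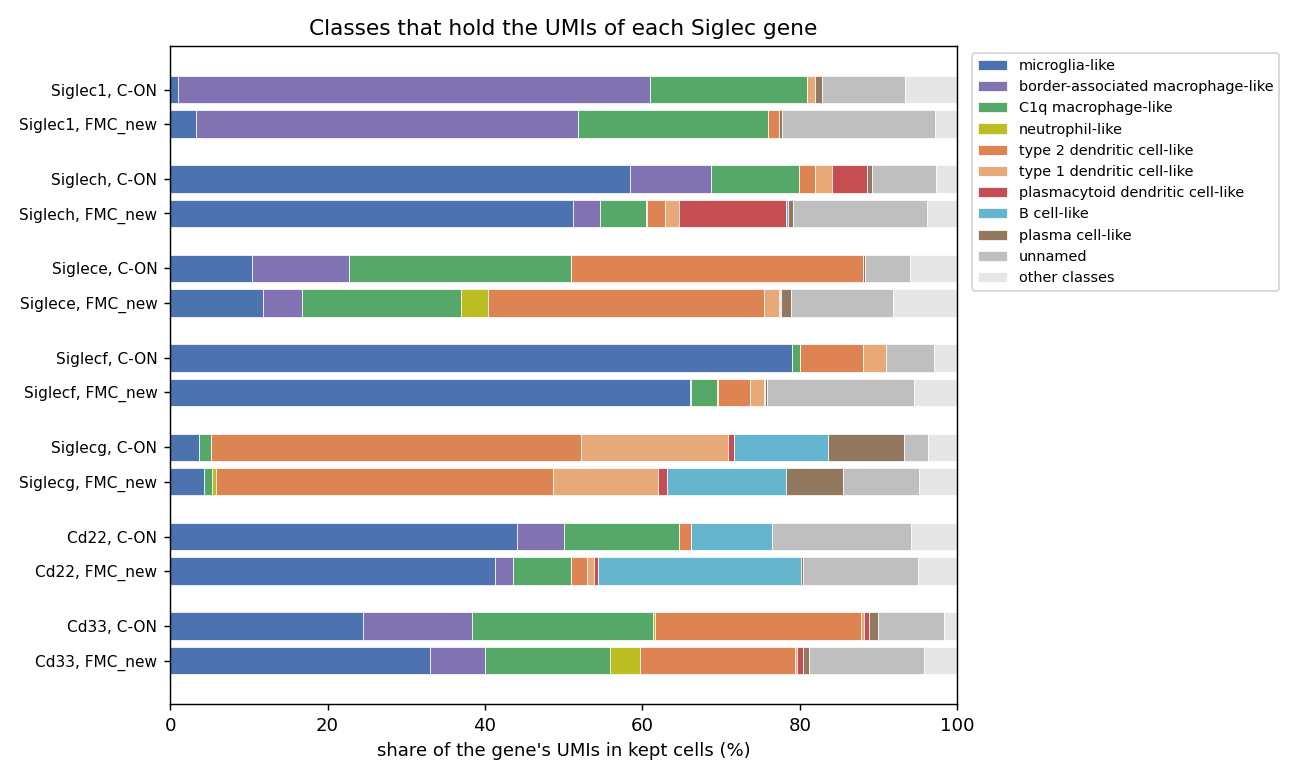
Share of each gene's UMIs in kept cells (x axis, %) held by each class, for each gene and library. Siglecf is mostly in microglia-like cells (79.0% and 66.1%), Siglec1 in border-associated macrophage-like cells (60.0% and 48.6%), and Siglecg in type 2 dendritic cell-like cells (47.01% and 42.9%), although its level is higher in the fewer B cell-like cells.

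Siglecg and Cd22 encode the inhibitory receptors of B cells, which hold back signalling from the B cell receptor. Siglecg was 59.7 (34.1 to 97.0) and 68.5 (55.9 to 83.2) in B cell-like cells, or 64.1 ± 6.21 (SD, n = 2 libraries). Type 2 dendritic cell-like cells had 42.9 (32.97 to 54.9) and 46.2 (41.1 to 51.9), and type 1 dendritic cell-like cells 24.5 (15.8 to 36.1) and 25.0 (20.1 to 30.8). In C-ON the B cell-like interval overlapped that of the type 2 dendritic class, and in FMC_new it did not. Plasmacytoid dendritic cell-like cells of FMC_new had 26.5 (11.4 to 52.2). Plasma cell-like cells, which have left the B cell program, had 2.94 and 4.15, or 20.3 and 16.5 times less than B cell-like cells. No Siglecg UMI was found in border-associated macrophage-like cells of either library, with upper 95% Poisson limits of 6.27 and 3.18 CPM.

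Cd22 was counted mainly in B cell-like and microglia-like cells. B cell-like cells had 26.1 (10.5 to 53.8, from 7 UMIs) in C-ON and 59.1 (47.4 to 72.8) in FMC_new, and microglia-like cells 28.2 (19.0 to 40.2) and 23.4 (19.7 to 27.6). B cell-like cells were thus 2.52 times higher in FMC_new only, and the means over libraries were 42.6 ± 23.3 and 25.8 ± 3.36 (SD, n = 2 libraries). C1q macrophage-like cells had 8.86 and 7.38, and microglia-like cells exceeded them by 3.18 times in each library. This difference was not kept under the per-cell gate, where Cd22 was 20.2 and 16.7 in microglia and 18.2 and 14.5 in C1q macrophages, with overlapping intervals. The limit of the gated C1q list given above applies here too. Gated B cells had 58.0 and 59.8, with an interval that overlapped that of gated microglia in C-ON and lay above it in FMC_new. Plasma cell-like cells had 0 UMIs in C-ON and 1 in FMC_new. In number, microglia-like cells held the larger part of the Cd22 UMIs, at 44.1% and 41.2%, against 10.3% and 25.7% in B cell-like cells.

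The neighbour of Cd22 is the myelin gene Mag, 18833 bases upstream on the same strand. Oligodendrocyte-like cells held Mag at 3905 and 4092 CPM, and Cd22 at 0.0869 and 0.451, so the Cd22 counts did not follow the class in which the neighbouring gene was high. An annotated antisense gene, Gm29439, overlaps Cd22. The sources used here do not state whether strand was used in counting, and without it the reads of this pair could not be told apart.

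Read together, the 7 genes reached nearly all microglia-like cells. At full depth 95.4% of microglia-like cells in C-ON and 96.3% in FMC_new had a UMI of at least 1 member, and 71.2% and 76.5% had UMIs of 2 or more. At 1000 UMIs per cell the share with any member was 51.6% (43.4 to 59.8) and 54.6% (51.2 to 58.0) in microglia-like cells, 40.2% (31.2 to 49.6) and 42.9% (36.1 to 50.01) in border-associated macrophage-like cells, and 33.8% and 30.3% in C1q macrophage-like cells. Type 2 dendritic cell-like cells followed at 24.0% and 23.2%. In FMC_new, plasmacytoid dendritic cell-like cells reached 88.9% and neutrophil-like cells 43.8%.

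Tumor (OPC-like) and oligodendrocyte-like cells had almost no Siglec counts. The tumor (OPC-like) class was named from markers of oligodendrocyte precursor cells, and whether its cells are neoplastic was not tested. It had 0% (up to 1.74) and 0.831% (0.399 to 1.52) of cells with any member at equal depth, and oligodendrocyte-like cells 0.0376% and 1.29%. In FMC_new, 35 oligodendrocyte-like cells (1.59%) held 2 or more members at full depth, against 1 cell (0.0188%) in C-ON. Astrocyte-like cells had 0 of 16 cells in C-ON and 5.15% (1.69 to 11.6) of 97 cells in FMC_new. T cell-like, NK cell-like and plasma cell-like cells stayed between 0% and 1.77%.

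**Figure D4:**
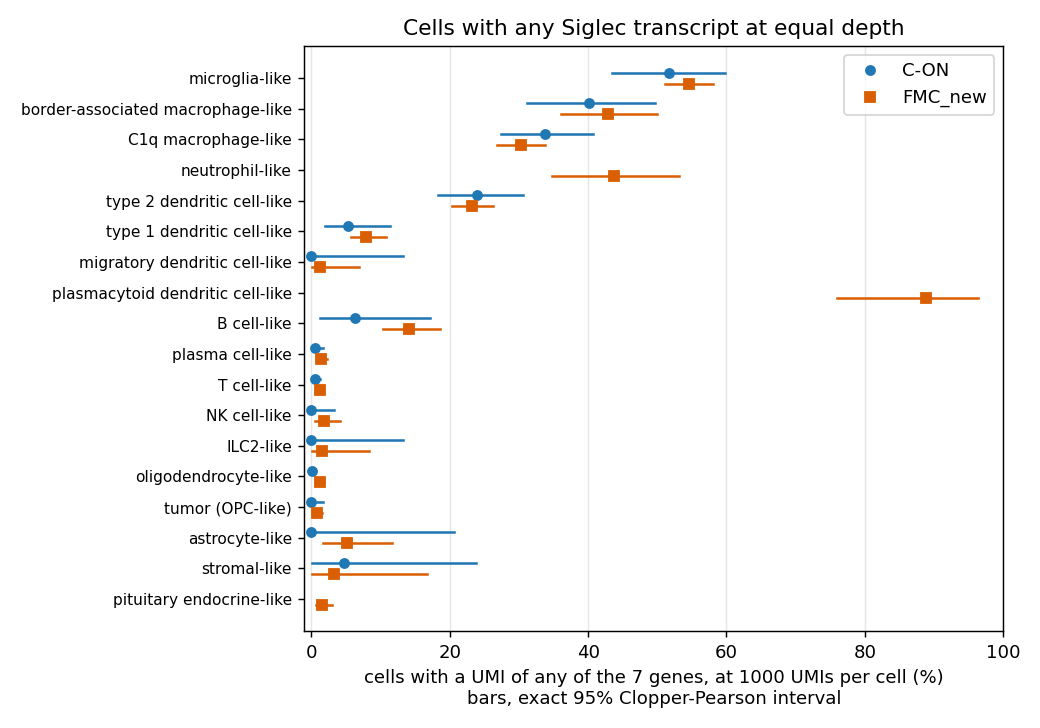
Share of cells with a UMI of any of the 7 Siglec genes after thinning every cell to 1000 UMIs (x axis, %), for each class of at least 20 cells, with circles for C-ON, squares for FMC_new and bars for the exact 95% Clopper-Pearson interval. Microglia-like cells are at 51.6% and 54.6%, while tumor (OPC-like) cells are at 0% and 0.831%.

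Within microglia-like cells, pairs of members differed in how often they were detected together. Both Siglech and Cd33 were in 52.9% of these cells in C-ON and 57.7% in FMC_new. Cd33 was in 63.3% and 66.6% of cells with Siglech and in 44.0% and 48.6% of the rest. For Siglecf the libraries went different ways: it was in 28.1% of cells with Siglech and 44.0% of the 25 without in C-ON, and in 34.2% and 19.8% in FMC_new, a difference that was not tested. Cd22 was less frequent in cells with Siglech (11.7% and 13.4%) than in the rest (20% and 17.1%) in both libraries. Deeper cells have more of every gene, so these shares also carry depth.

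Microglia-like cells were also read with and without a UMI of Cst7 or Lpl, genes raised in activated and lipid-handling microglia, after thinning to 1000 UMIs. In FMC_new Siglech was at 350.4 CPM (251 to 475) in the 117 cells with either gene and at 561 (508 to 619) in the 716 cells without, and these intervals did not overlap. The thinned shares with Siglech were 32.5% (24.1 to 41.8) and 39.1% (35.5 to 42.8), which overlapped. Cd33 was at 128 (71.8 to 211) with and 189.9 (159 to 225) without, Siglece at 76.9 (35.2 to 146) and 47.5 (32.9 to 66.4), and Siglecf at 59.8 (24.1 to 123) and 58.7 (42.3 to 79.3). None of these others differed beyond counting error. The cells with either gene were deeper before thinning, with a median of 9021 UMIs against 6370. In C-ON too few microglia-like cells held either gene for a class of 20 cells, and the 142 cells without had Siglech at 599 (478 to 740.2).

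**Figure D5:**
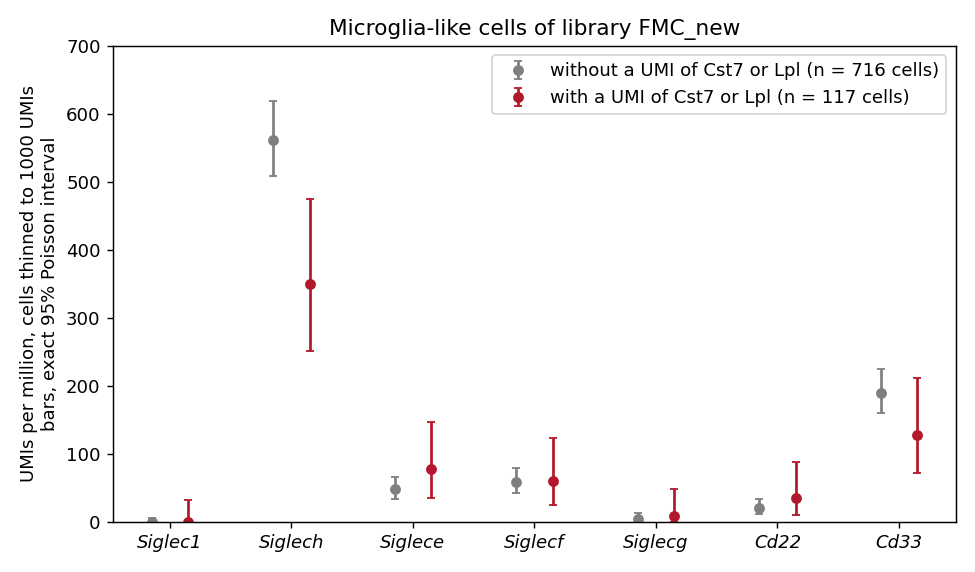
Level of the 7 Siglec genes (CPM, cells thinned to 1000 UMIs) in microglia-like cells of FMC_new with (117 cells) and without (716 cells) a UMI of Cst7 or Lpl, with bars for the exact 95% Poisson interval. The intervals of Siglech, 251 to 475 and 508 to 619, do not overlap, and those of the other members do.

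Siglec1 is known as an interferon-induced gene, and cells were therefore read with and without at least 2 of 6 interferon response genes (Ifit1, Ifit3, Isg15, Rsad2, Irf7, Usp18). In FMC_new 39 C1q macrophage-like, 58 microglia-like and 36 type 2 dendritic cell-like cells met this. The intervals overlapped for all 7 members in these 3 classes. For Siglec1 in C1q macrophage-like cells they were 25.6 (0.649 to 143, from 1 UMI) with and 14.97 (7.18 to 27.5) without, so a difference was not detectable at this depth.

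The signalling partners did not all have the same highest class, and some were highest in classes with few Siglec counts. Tyrobp, which encodes DAP12, was highest among the 15 classes in microglia-like cells, at 2461 and 2842 CPM, followed by border-associated macrophage-like cells at 2302 and 2520.3. The 45 plasmacytoid dendritic cell-like cells of FMC_new had more Tyrobp still, at 4986 (4737 to 5244), as they had of Siglech. The related adaptor gene Hcst was highest in T cell-like cells, at 585 and 489. Ptpn6, the SHP-1 gene, was highest in B cell-like cells at 302 and 367, and stood at 202 and 214 in microglia-like cells and 0.565 and 5.41 in oligodendrocyte-like cells. Ptpn11, the SHP-2 gene, was highest in oligodendrocyte-like cells at 198 and 236. The kinase genes Lyn (656 and 582 in microglia-like cells, 538 and 689 in B cell-like cells) and Syk (190.4 and 263 in B cell-like cells) were high in classes with several Siglecs.

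On the ligand side, Cd24a, which encodes a ligand of Siglec-G, was highest in type 1 dendritic cell-like cells at 388 and 381, followed by B cell-like cells at 269 and 290.2. Spn, which encodes CD43, a ligand of Siglec-1, was highest in T cell-like cells of C-ON at 66.7 and in NK cell-like cells of FMC_new at 106. St6gal1, which makes the linkage that CD22 binds, was at 168 and 168 in B cell-like cells, next to plasma cell-like cells at 150.4 and 163. Cmah, which makes the sialic acid form preferred by mouse CD22, was also highest in B cell-like cells at 164 and 189. Of the 15 partner and ligand genes, 11 had the same highest class in both libraries. Among the sialic acid synthesis genes, Nans was highest in migratory dendritic cell-like cells (79.4 and 86.0), Gne in plasma cell-like cells (43.9 and 33.7) and the transporter gene Slc35a1 in stromal-like cells (34.7 and 41.0), while the highest class of Cmas and of the sialic acid esterase gene Siae changed with the library.

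The genes whose profile over the 15 classes was most like that of each member were named by the lower of the library correlations (Pearson r of log2(CPM + 1)), as a description of classes that share libraries and depth. For Siglec1 these were Pf4 (r = 0.97), which is a marker used to name the border-associated class, Gm17268 (0.92) and Tlr8 (0.92). Siglech was like Hk3 (0.91) and Plxna4os1 (0.88), and Siglecf was most like Tnfrsf23 (0.84), Slc2a5 (0.82) and Olr1 (0.82). Siglece ran with Arl11 (0.87), Pilra (0.86) and Clec5a (0.85), and Cd33 with Gm5086 (0.91), Nlrp3 (0.90) and the naming marker Csf1r (0.89). Siglecg was most like H2-Ob (0.87), Gpr82 (0.85) and Haao (0.85), and Cd22 was most like Tlr7 (0.84), Lipc (0.82) and Bank1 (0.81, a B cell naming marker). Among pairs of members, the highest correlation in both libraries was that of Siglece with Cd33 (0.93 in C-ON and 0.82 in FMC_new). The next was Siglech with Cd33 in C-ON (0.84) and Siglech with Siglecf in FMC_new (0.78).

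Unnamed clusters held 2.99% to 17.6% of each member's UMIs in C-ON and 9.62% to 19.4% in FMC_new. The largest of those with Siglec counts, with 45 cells in C-ON and 597 in FMC_new, had macrophage genes in front and medians of 1489 and 1708 UMIs per cell. There Siglech stood at 183 and 274 CPM, Cd33 at 97.1 and 90.9, and Siglecf at 21.6 and 43.9, between the values of the microglia-like and C1q macrophage-like classes for Siglech and Siglecf.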

How the data were processed

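Optic nerve cells of Nf1-OPG mice were measured in 2 single-cell libraries (C-ON and FMC_new), each a pool. The deposited values are raw UMI counts per gene and barcode, made by the authors with Cell Ranger (version 7.2.0 per the labels) on mm10. The sources differ on that version. The members, marker lists and partner genes were chosen with earlier results of these data known.

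Cells with 500 to 5000 genes, 500 to 20000 UMIs and under 5% mitochondrial UMIs were kept, which left 8832 and 16817 cells. Seurat 5.3.0 in R 4.3.3 log-normalised the counts, took 2000 variable genes without the Siglecs (1 was among them), joined the libraries by canonical correlation (30 components) and clustered them at a resolution of 2. Of 63 clusters, 40 were named "X-like" from marker lists, which asked for at least 3 detected markers. Scrublet's own threshold marked 1 and 0 cells and was not used to remove doublets, so some may remain.

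Per library and class, UMIs were summed and scaled to 1000000 UMIs of the class (CPM) with exact Poisson intervals. Shares of cells had exact Clopper-Pearson intervals, also after each cell was thinned to 1000 UMIs. These steps ran in Python 3.11.15 (scanpy 1.11.5, pandas 2.3.3, scipy 1.17.1 and numpy 2.4.6). The share of all genes that kept to 1 class was computed for the same rule as the members, a rule that was tested on simulated data. Genes named were the 7 members, 15 partner and ligand genes, and the 3 genes most like each member among 14588. 1 gene met these rules and is not reported here. Alternatives were another resolution (0.8), clustering each library alone, a per-cell marker gate, wider cell limits, removal of high doublet scores, mean per-cell CPM, other thinning and each library alone. Total depth was 85101211 and 129113325 UMIs.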

Additional observations from a re-analysis of the deposited data

Results flagged for a closer look

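Barcodes outside the cell limits (2013 in C-ON and 4524 in FMC_new) entered no class and still held UMIs of every Siglec gene, which is above the limit that a count of 0 allows. Siglech had 83 UMIs there in C-ON and 465 in FMC_new, or 4.29 and 15.5 CPM against 13.9 and 54.7 in kept cells. Cd33 had 53 and 235 UMIs, and Siglece had 28 and 140. Siglecf had 20 and 74 UMIs, Siglecg 32 and 89, Cd22 7 and 61, and Siglec1 6 and 13. Which cell types these barcodes come from was not tested.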

How the results depend on the processing

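Of 78 alternative values, 24 moved by more than 1 SD between libraries. Leaving out either of 2 libraries cannot move a level by 1 SD, so those values do not bear on stability. Among the 15 classes, the one with the highest level was kept for 5 of 7 members under the per-cell gate, 6 of 7 with mean per-cell CPM, 4 of 5 at a resolution of 0.8 and 5 of 7 in C-ON alone. It was kept for 7 of 7 with wider cell limits, without high doublet scores and in FMC_new alone, and for 4 of 4 with libraries clustered alone. No paired analysis was possible because both libraries belong to the same group and no test was made. With mean per-cell CPM, Siglec1 in border-associated macrophage-like cells was 105 (112 by summed counts), Siglech in microglia-like cells 544, Siglecf there 68.5 and Siglecg in B cell-like cells 76.2. With each library clustered alone, Siglech was 513 and Siglecf 44.6, so the Siglecf level moved by over 1.5 times. By the per-cell gate, Siglech was 601, Siglecf 59.5 and Siglece in C1q macrophages 69.2. In the gated C1q macrophages, which numbered 346 and 2539 cells, Siglecf stood at 26.2 and 32.9, so the Siglecf values depend on how cells are classed. The C1q list of the gate does not part microglia-like from C1q macrophage-like cells by level. The gate therefore cannot decide how far Siglecf is confined to microglia. At a resolution of 0.8 Siglece in the C1q class fell from 93.1 to 23.1. Siglecf was 69.5 with wider cell limits and 76.7 without the 8% of cells with the highest doublet scores, an alternative chosen after seeing the data. At 500 UMIs per cell the shares with a UMI were 4.82% for Siglec1, 24.5% for Siglech, 5.16% for Siglece, 3.85% for Siglecf and 1.33% for Siglecg. Unthinned they were 34.6%, 85.2%, 33.4%, 31.5% and 27.9%, with 16.5% for Cd22 and 53.3% for Cd33. Leaving out either library gave 107 to 116 for Siglec1, 462 to 503 for Siglech, 78.9 to 107 for Siglece, 71.5 to 74.2 for Siglecf, 59.7 to 68.5 for Siglecg, 26.1 to 59.1 for Cd22 (26.1 in C-ON) and 163 to 182 for Cd33.

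Of the 7 members, 3 kept to 1 class in the reported setting. At 5 times the next class 2 did (4.55% of all genes), with classes of at least 50 cells 4 (19.2%), at a resolution of 0.8 3 (13.6%, with Siglec1 lost and Siglece in type 2 dendritic cells gained), in FMC_new alone 4 (29.2%, with Siglech highest in the plasmacytoid class) and in C-ON alone 3 (27.7%). The border-associated class was not named at a resolution of 0.8, nor were the border-associated and C1q classes with the libraries clustered alone, so those values could not be given. The small B cell-like class of C-ON (48 cells) limits Cd22 and Siglecg.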
